A study of Mus musculus with 52 samples.

Results

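The mRNA of 9 unconventional myosin heavy chain genes, Myo5a, Myo5b, Myo5c, Myo6, Myo7a, Myo10, Myo1c, Myo1d and Myo1e, was measured in a mouse kidney cell line. The libraries formed 13 sets, each from a clone in a given cell state, and these sets are called clones here. The 9 genes were taken by symbol from the 24421 gene symbols of the count tables, and all 9 passed the expression filter in both cell states. Myo5c was the starting point and was chosen by its clone means, which were lower in every mutant clone than in every control clone of the same state. Its mutant and control levels are therefore given as a description, with no test. The other 8 genes are its paralogs, and the comparison asks whether any of them was higher where Myo5c was low.

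Unconventional myosins are actin-based motors that do not build thick filaments. A head domain binds actin and hydrolyses ATP, a neck carries calmodulin or other light chains, and the tail binds membranes or cargo adaptors. Class V myosins (Myo5a, Myo5b and Myo5c) walk along actin and hold vesicles near the cell cortex: Myo5a carries melanosomes and neuronal vesicles, Myo5b works with Rab11 on apical recycling endosomes of epithelia, and Myo5c is best known from secretory granules and tubules of glandular epithelia. Myo6 moves towards the pointed end of actin and serves endocytosis at the base of microvilli. Myo7a supports the stereocilia of the inner ear, Myo10 extends filopodia, and the class I myosins Myo1c, Myo1d and Myo1e link membrane to cortical actin.

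The cells were Cilia-APEX-IMCD3 cells, an immortalised line from the mouse inner medullary collecting duct in which primary cilia can be induced. Every clone, controls included, had gone through CRISPR base editing, a method that changes single bases without cutting both DNA strands. Mutant clones were labelled homozygous for a change in Wdr34 or Wdr60, which encode intermediate chains of the dynein-2 motor of cilia. Controls had received the editor without a target oligo. The ciliated state held the mutant clones Wdr34-1, Wdr34-3 and Wdr60 and the control clones D8, H12, A4 and G7. The non-ciliated state held the mutant clones Wdr34 and Wdr60 and the control clones AB, Co1, Co2 and Co3. The study's methods give 4 control and 3 mutant clones. On that count every non-ciliated clone would also stand in the ciliated state, though the labels do not pair them. The paper states that a Wdr34 mutant clone was left out of its non-ciliated analysis. Comparisons between states, their permutations and correlations over clones took all labels as separate. On the study's count they enter the same clones more than once and rest on fewer independent clones than labels. The labels name no allele. They give 10% serum for all samples, whereas the study's methods describe a low-serum medium for ciliated cells. Serum, time of sequencing and ciliation cannot be told apart between the states. Median log2 offsets of a chromosome from controls of the same state were alike for some labels across states. On chromosome 1 they were -0.47 in G7 and -0.57 in Co2, and on chromosome 3 -0.42 in D8 and -0.50 in Co3. On chromosome 5 both Wdr60 labels were at 0.29. On chromosome 3 the mutants Wdr34-1 and non-ciliated Wdr34 were at 0.31 and 0.38. AB and H12 were alike on chromosome 3 (0.39 and 0.41) and both low on chromosome 6 (-0.58 and -0.40). They differed on chromosome 4 (0.00 and 0.27) and on chromosome 18, where AB was at -0.41 and the ciliated controls at -0.06 to 0.08. Whether these are the same clones was not tested. Each clone grew from 1 cell and was sequenced as 4 technical replicate libraries, 52 in all, so each clone is a single example of its genotype. Tests over libraries measure the spread between libraries more than that between independent clones, and exact permutation tests over clone means are given for the genes that came nearest to a change and as ranges for the rest.

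Library totals were 14816218 to 28084979 counts, so 1 CPM (counts-per-million) stood for 14.8 to 28.1 counts before scaling. The CPM given here were scaled by TMM over all 52 libraries, which shifts these counts somewhat. Library 1 of AB stood farthest from the others of its clone (SD of log2 differences 0.575, against a median of 0.265 over all libraries), followed by library 1 of the non-ciliated mutant Wdr60 (0.505) and library 2 of the ciliated mutant Wdr60 (0.501), a clone whose 4 libraries were all above that median (0.337 to 0.501). Renal epithelial markers were present, with Pax8 at 149 to 427 CPM and Cdh16 at 154 to 857 CPM in the 13 clones. Of the 10 renal epithelial markers 9 were tested in non-ciliated cells, with a median log2 fold change of 0.04, and 3 passed the adjusted p, as did 15.01% of all genes. All 3 were lower in mutants: Cdh16 was at 154 and 156 CPM in the mutants and 208 to 269 CPM in the controls (-0.62, edgeR adjusted p = 1.56e-06, exact permutation p 0.0667). Pax2 was at 101 and 116 CPM against 116 to 280 CPM (-0.68, edgeR adjusted p = 0.0170, exact permutation p 0.133) and Pax8 gave -0.47 (edgeR adjusted p = 0.0250, exact permutation p 0.267). Epcam (0.38), Krt8 (0.26), Cdh1 (0.13) and Krt18 (0.04) had values above 0 and did not pass. Their part in the Myo5c and paralog differences was not tested. Aqp2, the water channel of principal cells, was at or near 0 in all clones. The controls G7 and Co2 stood apart: Epcam was at 13.7 CPM in G7 and 2.89 CPM in Co2, against 180 to 836 CPM in the other 6 controls, and Cdh1 was at 14.7 and 4.27 CPM. The mutant Wdr34-3 had Krt8 at 76.5 CPM, against 542 and 559 CPM in the other ciliated mutants. Other renal markers were high in these same controls: Cdh16, Pax2 and Pax8 were at 857, 315 and 427 CPM in G7, the highest of the 13 clones, and at 269, 280 and 303 CPM in Co2, the highest of the non-ciliated clones. Summed over 6 fibroblast markers the level was 1.38 to 5.73 CPM in 12 clones and 31.2 CPM in Wdr34-3, of which Dcn made up 29.1 CPM. Summed over 4 leukocyte markers it was 0.856 to 5.42 CPM. Of these Cd68 passed the adjusted p in both states, lower in mutants. In ciliated cells it gave -0.95 (edgeR adjusted p = 0.0382, exact permutation p 0.143), with overlapping groups. In non-ciliated cells it was at 2.02 and 2.36 CPM against 2.41 to 4.51 CPM (-0.67, edgeR adjusted p = 0.0185, exact permutation p 0.133). Its part in the Myo5c differences was not tested.

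By RefSeq on GRCm38.p6, 4 of the 9 genes lie on chromosome 9. Myo5c spans chr9:75231969-75307485 on the plus strand, directly after Myo5a at chr9:75069799-75223688 on the same strand. Myo1e lies at chr9:70207350-70400067 and Myo6 at chr9:80164976-80311729, both on the plus strand. Myo10 lies at chr15:25622550-25813673, Myo1c at chr11:75650519-75674643 and Myo1d, on the minus strand, at chr11:80482126-80780055. Myo7a lies on the minus strand at chr7:98051054-98119522. The upstream sequences of the pair of genes that showed the widest differences, Myo5c by genotype and Myo6 by state, are printed from RefSeq, plus strand, ending at the base before the first annotated base of the gene. The window of Myo5c is chr9:75231764-75231968 and that of Myo6 is chr9:80164784-80164975.
Myo5c: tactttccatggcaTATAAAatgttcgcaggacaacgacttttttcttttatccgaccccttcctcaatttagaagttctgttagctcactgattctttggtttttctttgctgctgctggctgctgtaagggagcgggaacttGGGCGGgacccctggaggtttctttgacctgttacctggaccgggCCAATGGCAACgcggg
Myo6: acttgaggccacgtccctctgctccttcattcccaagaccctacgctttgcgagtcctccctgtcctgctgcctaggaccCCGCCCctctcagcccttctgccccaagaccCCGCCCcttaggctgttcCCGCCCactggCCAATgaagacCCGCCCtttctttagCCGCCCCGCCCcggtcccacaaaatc
Capitals mark matches to 4 sets of letters, searched on both strands. The TATA box was read as TATAAA, the core box of Sp factors as GGGCGG, the box of NF-Y factors as CCAAT, and the arm of the X-box that RFX factors bind at many ciliary genes as GTTGCC. The Myo5c window held 1 match to each. Counted from the gene start, TATAAA began at base -191, GGGCGG at -61 and CCAAT at -16. The X-box arm, on the minus strand as GGCAAC, followed the CCAAT letters at base -11. For comparison the first 205 bases of 32851 promoter sequences were searched. These windows were not set to end at the annotated gene start, as the Myo5c window does, so the shares are a rough guide. Of them 8.28% held the X-box arm, 29.2% CCAAT, 25.6% GGGCGG and 9.33% TATAAA. The Myo6 window held no TATAAA and no GTTGCC, 1 CCAAT and 6 GGGCGG. The letters GGGCGG occurred at least once in 23.3% of windows of its length, taken in the same way. These are matches of letters, and no binding was measured.

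Myo5c mRNA was scarce in all clones and was at 0 in a non-ciliated mutant. In these bulk samples fewer cells with Myo5c mRNA and less of it per cell cannot be told apart. In ciliated mutants its level was 0.0890 CPM in Wdr34-1, 0.296 CPM in Wdr60 and 0.804 CPM in Wdr34-3. In ciliated controls it was 0.825 CPM in A4, 1.69 CPM in G7, 1.81 CPM in H12 and 4.20 CPM in D8. The groups did not overlap, as the choice of the gene requires, but the gap between Wdr34-3 and A4 was narrow. Their 4 libraries spanned 0.409 to 1.25 CPM and 0.585 to 1.21 CPM, and both clones summed to 59 counts. In non-ciliated cells the mutant Wdr34 had 0 counts in all 4 libraries and the mutant Wdr60 had 9 counts over its 4 libraries (0.138 CPM). The controls stood at 0.457 CPM in Co1, 1.07 CPM in Co3, 1.70 CPM in Co2 and 7.73 CPM in AB.

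Means of clones were 0.396 ± 0.368 CPM (SD, n = 3) in ciliated mutants and 2.13 ± 1.45 CPM (n = 4) in ciliated controls, a log2 fold change of -2.41 (SE 0.46). Leaving out each clone in turn gave -3.42 without the mutant Wdr34-3, the highest of the mutants, to -1.85 without the control D8. In non-ciliated cells they were 0.0688 ± 0.0973 CPM (n = 2) and 2.74 ± 3.37 CPM (n = 4), a log2 fold change of -5.20 (SE 0.89). That fitted value rests on a clone at 0 and is no bound. Taking 3 counts over the 4 libraries of Wdr34 as the floor (0.0453 CPM), the lowest control, Co1, was at least 10.1-fold higher, and the mean of the controls at least 60.6-fold higher. The floor covers counting error only. In all, 2 of 12 ciliated and 4 of 8 non-ciliated mutant libraries had no Myo5c count.

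The controls themselves were spread 5.09-fold in ciliated cells and 16.9-fold in non-ciliated cells. A single clone, AB, set most of the non-ciliated control mean, and without it the log2 fold change was -3.85. Without the mutant Wdr60, only Wdr34 with its 0 counts is left, and the floor given above is all that can be said. Levels also crossed between states: the ciliated mutant Wdr34-3 (0.804 CPM) lay above the non-ciliated control Co1 (0.457 CPM). Among controls, the state made no difference that passed the test: ciliated against non-ciliated, the log2 fold change of Myo5c was -0.37 (SE 0.44, edgeR adjusted p = 0.480).

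**Figure D1:**
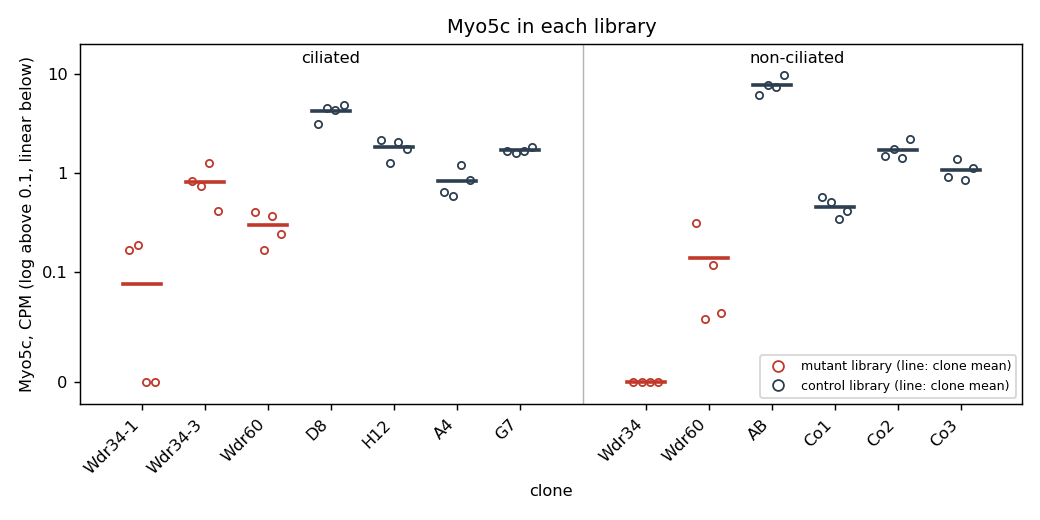
Myo5c level (CPM; y axis logarithmic above 0.1 and linear below) in each of the 52 libraries, by clone and state; circles are libraries and lines are clone means. Libraries of Wdr34-3 and A4 overlap, AB and D8 are the highest clones, and all 4 libraries of the non-ciliated mutant Wdr34 lie at 0.

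The edited genes were read first as a check of labels, with the limit that a point mutation need not alter an mRNA level. Wdr34 was at 39.3 ± 15.4 CPM in ciliated mutants and 40.2 ± 5.83 CPM in ciliated controls, and Wdr60 at 21.0 ± 1.01 and 24.0 ± 1.37 CPM (n = 3 and 4). In non-ciliated cells Wdr34 was at 30.0 ± 2.97 and 26.4 ± 4.14 CPM, and Wdr60 at 28.4 ± 3.12 and 24.1 ± 2.67 CPM (n = 2 and 4). The mutant groups pool clones of both genes. By clone, Wdr34 mRNA was at 46.6 CPM in Wdr34-1, 21.6 CPM in Wdr34-3 and 49.7 CPM in the ciliated Wdr60, with controls at 31.5 to 43.5 CPM, so Wdr34-3 lay below and the other mutants above them. Wdr60 mRNA was at 20.6 CPM in the ciliated Wdr60 clone (controls 22.2 to 25.4 CPM) and at 30.6 CPM in the non-ciliated one (controls 20.2 to 25.8 CPM). Wdr60 passed the adjusted p in opposite directions, at -0.20 in ciliated cells (edgeR adjusted p = 0.0471, exact permutation p 0.0571) and at 0.23 in non-ciliated cells (edgeR adjusted p = 0.0394, exact permutation p 0.200), where both mutants lay above all controls. Neither gene was called in either state, where a call needs both an edgeR adjusted p under 0.05 and a fold change of 1 or more on the log2 scale, up or down.

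None of the 8 paralogs was called higher or lower in mutants. Of all genes tested, 0.644% were called in ciliated cells (77 of 11950) and 3.06% in non-ciliated cells (368 of 12012). Under an unadjusted p of 0.05, edgeR found 1 paralog in ciliated cells, Myo1e, and 2 in non-ciliated cells, Myo6 and Myo1c, against 19.2% and 30.3% of all genes. DESeq2 also called 0, with the same numbers under an unadjusted p of 0.05 (1 and 2). Summing the libraries of each clone called 0, with 0 under that p in either state, and limma voom with the clone as a block called 0, with 0 and 1. Over all genes these fits called 0 in either state with clones summed, and 7 in ciliated and 9 in non-ciliated cells by voom, so their 0 says nothing particular about the paralogs. By the adjusted p alone, without the limit on size, edgeR passed 0 paralogs in ciliated cells (3.17% of all genes) and 1 in non-ciliated cells, Myo1c (15.01% of all genes). By that measure DESeq2 passed 0 and 2, Myo6 and Myo1c. Over clone means the exact permutation p of the 8 paralogs ranged from 0.286 to 0.943 in ciliated and from 0.133 to 0.933 in non-ciliated cells.

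The paralogs within class V came first. Myo5a, the neighbour of Myo5c, was at 71.5, 131 and 73.2 CPM in the ciliated mutants Wdr34-1, Wdr34-3 and Wdr60. In the ciliated controls D8, H12, A4 and G7 it was at 78.1, 73.0, 92.6 and 185 CPM. Only Wdr34-1 lay outside the control range, and it lay below it. Between the groups the log2 fold change was -0.23 (SE 0.20, edgeR adjusted p = 0.586). In non-ciliated cells Myo5a was at 138 and 130 CPM in the mutants Wdr34 and Wdr60 and between 107 CPM (AB) and 147 CPM (Co1) in the controls, a log2 fold change of 0.02 (SE 0.10, edgeR adjusted p = 0.901).

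Myo5b, the recycling endosome motor of epithelia, varied more between clones than any other of the 8 paralogs. Its level in ciliated mutants was 180 CPM in Wdr34-1, 157 CPM in Wdr60 and 50.5 CPM in Wdr34-3. In ciliated controls it was 208 CPM in A4, 165 CPM in D8, 106 CPM in H12 and 3.82 CPM in G7. The low clones G7 and Wdr34-3 are those with the lowest Krt8 of their groups (26.8 and 76.5 CPM). The log2 fold change was 0.09 (SE 0.51, edgeR adjusted p = 0.947). Among non-ciliated clones the mutants were at 32.3 CPM (Wdr34) and 46.2 CPM (Wdr60). The controls were at 42.9 CPM in AB, 70.4 CPM in Co1, 71.9 CPM in Co3 and 7.80 CPM in Co2, the clone with the lowest Epcam. The log2 fold change was -0.30 (SE 0.39, edgeR adjusted p = 0.643).

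Because Myo5b was lowest in both controls with low Epcam, the comparison was repeated without G7 and Co2, a choice made after seeing the data. Myo5b then gave -0.32 in ciliated cells (edgeR adjusted p = 0.371) and -0.66 in non-ciliated cells (edgeR adjusted p = 0.00548), below the limit on size. The change in ciliated cells turned its sign, and neither value was higher in mutants. None of the 8 paralogs was called without these clones. The part of the low Epcam and Cdh1 clones in the spread of Myo5b beyond this was not tested.

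Per kilobase of exon, Myo5c was a small share of class V mRNA in controls. In RPKM (CPM divided by the exon length in kilobases) Myo5c stood at 0.220 in ciliated and 0.283 in non-ciliated controls, against 7.25 and 8.91 for Myo5a and 12.3 and 4.94 for Myo5b. It made up 1.18% ± 0.664 of class V mRNA in ciliated controls and 2.26% ± 2.84 in non-ciliated controls (n = 4 each), or 0.874% in the latter without AB. In mutants its share was 0.257% (n = 3) and 0.0524% (n = 2).

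The summed level of Myo5a and Myo5b was 19.5 ± 4.82 RPKM in ciliated mutants (n = 3) and 19.6 ± 6.56 RPKM in ciliated controls (n = 4), or 99.3% of controls. In non-ciliated cells it was 13.1 ± 0.651 RPKM (n = 2) and 13.9 ± 3.41 RPKM (n = 4), or 94.3%. The difference in Myo5c itself was 0.179 RPKM in ciliated and 0.276 RPKM in non-ciliated cells, which equals 0.913% and 1.99% of the Myo5a and Myo5b level of controls. The SD of that level between control clones was 36.6 times and 12.4 times the difference in Myo5c. A rise of Myo5a and Myo5b of the size of the missing Myo5c mRNA was therefore not detectable with these clones. Leaving out each clone in turn, the mutants stood at 89.2% to 115% of controls in ciliated cells and at 86.9% to 102% in non-ciliated cells.

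What did differ was which class V gene a clone used. Myo5b made up 67.9% to 79.2% of class V mRNA in 5 of 7 ciliated clones (Wdr34-1, Wdr60, D8, H12 and A4), 36.6% in Wdr34-3 and 2.99% in G7. In G7 the share went to Myo5a, whose 12.5 RPKM was the highest of all 13 clones. Non-ciliated clones held 26.2% to 44.7% Myo5b apart from Co2, at 7.63%. The class V total ranged from 13.1 RPKM (G7) to 27.6 RPKM (A4) in ciliated clones and from 10.5 RPKM (Co2) to 17.2 RPKM (Co1) in non-ciliated clones.

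**Figure D2:**
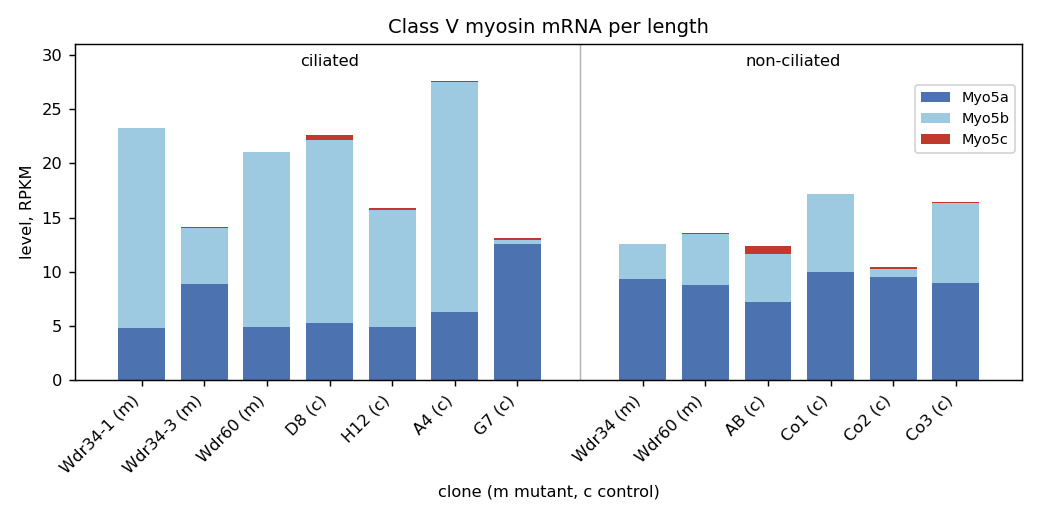
Level per length (RPKM, bars starting at 0) of Myo5a, Myo5b and Myo5c stacked for each clone, ciliated on the left and non-ciliated on the right; m marks mutant and c control clones. Myo5c is a thin band in the controls D8 (0.433 RPKM) and AB (0.797 RPKM), and G7 and Co2 hold almost no Myo5b.

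Myo6 was lower on average in non-ciliated mutants, short of the test. In the non-ciliated mutants it was at 50.4 CPM (Wdr34) and 74.5 CPM (Wdr60), and in the controls at 101 CPM (AB), 59.4 CPM (Co1), 97.9 CPM (Co2) and 71.5 CPM (Co3). Wdr34 lay below all controls and Wdr60 within them. The log2 fold change was -0.40 (SE 0.14, edgeR adjusted p = 0.0521; exact permutation p over clones 0.267, which is 1 after adjustment over all genes). Without AB library 1, left out after seeing that it stood farthest from its clone, the value was -0.40 with an adjusted p of 0.0414. In ciliated cells Myo6 was at 225, 165 and 195 CPM in Wdr34-1, Wdr34-3 and Wdr60 and at 149 to 316 CPM in the controls, so the groups overlapped. On the log2 scale the mutants differed by -0.18 (SE 0.13, edgeR adjusted p = 0.508).

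Myo10, the filopodial motor, was level between the groups, at 107 ± 37.4 CPM in ciliated mutants and 108 ± 31.1 CPM in ciliated controls (log2 fold change -0.02, edgeR adjusted p = 0.970). In non-ciliated cells it was at 94.8 ± 17.0 and 98.7 ± 18.1 CPM (-0.06, edgeR adjusted p = 0.741). Its lowest ciliated clones were Wdr34-3 (64.6 CPM) and G7 (65.7 CPM). Myo7a, the stereocilium motor, was the paralog with the lowest level. It was at 26.1, 14.8 and 33.6 CPM in the ciliated mutants Wdr34-1, Wdr34-3 and Wdr60 and at 26.0, 30.4, 21.5 and 3.15 CPM in D8, H12, A4 and G7. G7 and Wdr34-3 were again the low clones. This gave a log2 fold change of 0.28 (SE 0.33, edgeR adjusted p = 0.703), and without G7, the lowest control, it was -0.08. In non-ciliated cells Myo7a was at 14.4 ± 1.17 and 13.9 ± 2.64 CPM (0.05, edgeR adjusted p = 0.804).

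Among the class I myosins, Myo1c passed the adjusted p in non-ciliated cells by edgeR. Myo1c, a motor of the plasma membrane and of membrane delivery, was at 561 CPM (Wdr34) and 477 CPM (Wdr60) in the non-ciliated mutants. In the controls it was at 434 CPM in AB, 479 CPM in Co1, 415 CPM in Co2 and 417 CPM in Co3. Wdr34 lay above all controls and Wdr60 just under Co1. This gave a log2 fold change of 0.25 (SE 0.06, edgeR adjusted p = 0.00478), 119% of the control mean and under the limit on size. Over clones the exact permutation p was 0.133 (adjusted 1), and with 2 against 4 clones it cannot go below 0.0667. In ciliated cells Myo1c was at 350 ± 37.0 and 358 ± 53.9 CPM (-0.04, edgeR adjusted p = 0.818). The effect in ciliated cells minus that in non-ciliated cells was -0.28 (SE 0.10, edgeR adjusted p = 0.131).

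Myo1e, a class I motor needed at the slit diaphragm of the glomerulus, was at 95.7, 81.5 and 90.7 CPM in the ciliated mutants Wdr34-1, Wdr34-3 and Wdr60. In the controls D8, H12, A4 and G7 it was at 64.4, 81.6, 93.7 and 64.0 CPM. Only Wdr34-1 lay above all controls. The log2 fold change was 0.23 (SE 0.08, edgeR adjusted p = 0.0973; exact permutation p 0.286, adjusted 1). In non-ciliated cells it was at 82.1 ± 3.87 and 77.2 ± 7.20 CPM (0.09, edgeR adjusted p = 0.345). Myo1d, a class I motor known for left-right asymmetry in flies, had like means in both states. It stood at 133 ± 19.5 and 132 ± 42.5 CPM in ciliated cells and at 74.4 ± 25.8 and 75.3 ± 13.5 CPM in non-ciliated cells (edgeR adjusted p = 0.995 and 0.946). The non-ciliated mutants lay on opposite sides of the controls (62.8 to 87.1 CPM), with Wdr34 below at 56.1 CPM and Wdr60 above at 92.6 CPM.

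Single mutant clones left the control range for some paralogs, in both directions. Of 24 pairs of a paralog with a ciliated mutant clone, 2 lay above all controls (Myo1e in Wdr34-1 and Myo7a in Wdr60) and 2 below (Myo5a in Wdr34-1 and Myo10 in Wdr34-3). Of 16 pairs in non-ciliated cells, 2 lay above (Myo1c in Wdr34 and Myo1d in Wdr60) and 3 below (Myo6 and Myo1d in Wdr34, Myo10 in Wdr60). Over all genes tested, 15.1% of such pairs lay above and 13.6% below in ciliated cells, and 18.9% and 16.7% in non-ciliated cells, so nothing particular to the paralogs is read from these counts. No paralog was outside the control range on the same side in every mutant clone of a state, which 1.95% of all genes were in ciliated and 13.03% in non-ciliated cells. The test of the mutant effect between states called 0 of the 8 paralogs (1.19% of all genes). For that difference edgeR and DESeq2 each had 1 paralog under an unadjusted p of 0.05, Myo1c (14.4% of all genes by edgeR), and the clone-summed and voom fits had 0.

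**Figure D3:**
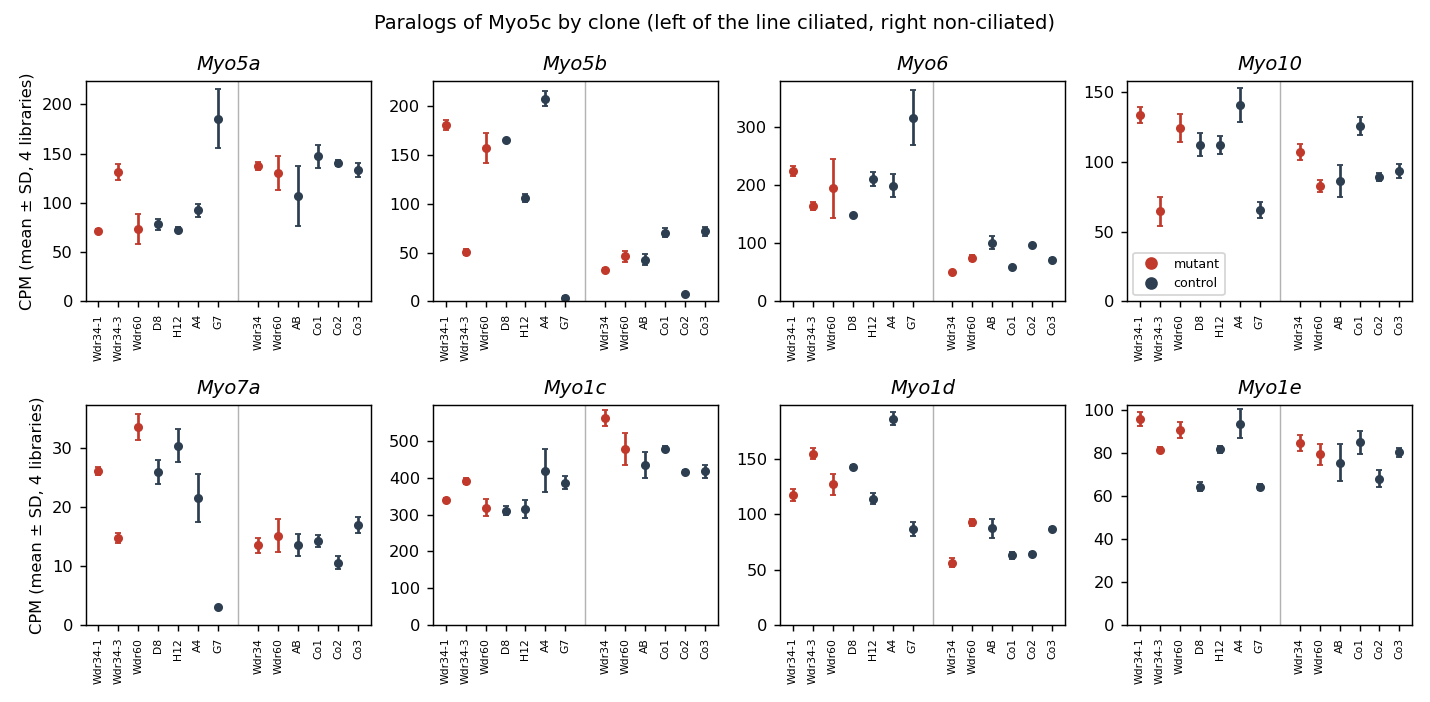
Level (CPM, y axes starting at 0) of each of the 8 paralogs by clone, as mean ± SD of 4 technical libraries; ciliated clones stand left of the grey line, mutants in red and controls in dark blue. Red and blue points overlap in every panel, and G7 is low for Myo5b and Myo7a and high for Myo5a and Myo6.

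**Figure D4:**
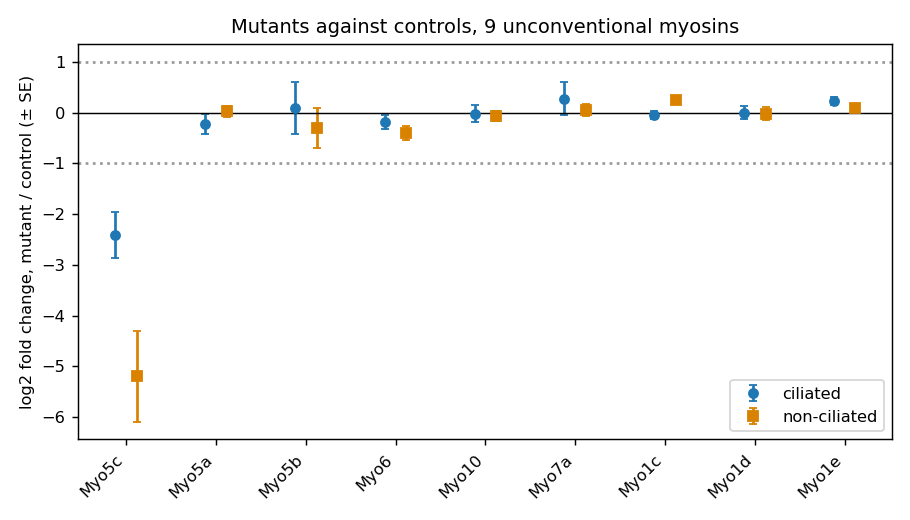
Log2 fold change of mutants against controls (± SE, edgeR) for the 9 genes in ciliated (blue circles) and non-ciliated (orange squares) cells; dotted lines mark the limit of 1 used for calls. The 8 paralogs lie between -0.40 and 0.28, and Myo5c, the gene chosen for its low level in mutants, at -2.41 and -5.20.

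The order of the genes per length was led by Myo1c in every group, at 47.2 to 85.3 RPKM across the 13 clones and with no overlap with the next gene. In ciliated controls Myo1d (20.5 RPKM), Myo6 (18.1), Myo1e (13.3), Myo5b (12.3), Myo10 (10.6) and Myo5a (7.25) followed, with each overlapping its next neighbour in the order. Myo7a (2.37 RPKM) lay below Myo5a without overlap, and its range met that of Myo5c (0.220 RPKM) only through G7. In non-ciliated controls Myo1e (13.5 RPKM), Myo1d (11.6), Myo10 (9.75), Myo5a (8.91), Myo6 (6.83), Myo5b (4.94) and Myo7a (1.62) formed an overlapping series. Myo5c (0.283 RPKM) was below all of them without overlap.

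Among controls, Myo6 and Myo5b differed between the states. Ciliated against non-ciliated controls, 2 of the 9 genes were called, Myo6 and Myo5b, both higher in ciliated cells, where 12.2% of all genes were called. Myo6 was at 149 to 316 CPM in ciliated and 59.4 to 101 CPM in non-ciliated controls, with no overlap, which 22.5% of all genes also showed. The log2 difference of Myo6 was 1.40 (SE 0.12, edgeR adjusted p = 3.79e-14; exact permutation p 0.0286, the smallest that 4 against 4 clones allow, and 0.127 after adjustment over all genes). It stayed called when either G7 (1.17) or both G7 and Co2 (1.26) were left out. All 3 ciliated mutants (165 to 225 CPM) likewise lay above both non-ciliated mutants (50.4 and 74.5 CPM).

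Myo5b was at 121 ± 88.4 CPM in ciliated and 48.3 ± 30.1 CPM in non-ciliated controls (n = 4 each). Its log2 difference was 1.31 (SE 0.43, edgeR adjusted p = 0.00692), but G7 lay below every non-ciliated control and the exact permutation p was 0.543 (adjusted 0.701). That permutation, like that of Myo6, took the controls as separate clones, although G7 and Co2, and D8 and Co3, had like chromosome offsets. Myo5b was at 3.82 CPM in G7 and 7.80 CPM in Co2, and at 165 CPM in D8 and 71.9 CPM in Co3. No paired comparison was run. The call of Myo5b was lost without Co2 (0.96), without A4 (0.92), with clones summed (1.31) and with the clone as a block (0.67), and it held at 1.36 without both G7 and Co2. By the adjusted p alone 5 of the 9 genes passed, as did 61.9% of all genes. The other 3 were Myo1d (0.81, SE 0.12), Myo7a (0.54, SE 0.24) and Myo1c, which was lower in ciliated cells (-0.30, SE 0.06). Myo5a (-0.31, edgeR adjusted p = 0.0637), Myo10 (0.12) and Myo1e (-0.03) did not pass. Myo5a did pass without G7 and Co2, at -0.68 (edgeR adjusted p = 1.04e-05), and without AB library 1, at -0.36 (edgeR adjusted p = 0.0260), lower in ciliated controls each time. Myo7a passed without G7 and Co2 (0.79) but not without AB library 1 (0.52, edgeR adjusted p = 0.0639).

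Genes of the motor's surroundings were read from 6 lists. None of them held a gene called in mutants of either state by edgeR or DESeq2. Of 15 other unconventional heavy chains 5 were tested in ciliated and 7 in non-ciliated cells, with medians of -0.17 and -0.26 against -0.01 and 0.00 over all genes. In non-ciliated cells 1 of the 7 passed the adjusted p, as did 15.01% of all genes, Myo18a at -0.32 (SE 0.08, edgeR adjusted p = 0.0104, exact permutation p 0.267), named after its value was seen. The 3 conventional non-muscle heavy chains, Myh9, Myh10 and Myh14, had medians of -0.19 and 0.10, and 10 of 11 light chains and calmodulins, the neck subunits, had medians of 0.04 in both states. Of 4 folding factors of the myosin head, 3 were tested, with medians of -0.23 and -0.08. Under an unadjusted p of 0.05, edgeR found 2, 1, 2 and 1 genes of these 4 lists in ciliated cells (19.2% of all genes) and 3, 1, 0 and 0 in non-ciliated cells (30.3% of all genes).

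Of 20 cargo adaptors and Rab partners of class V myosins 17 were tested, with medians of 0.07 and 0.08 and 2 and 4 genes under an unadjusted p of 0.05. In ciliated cells 2 of the 17 passed the adjusted p, as did 3.17% of all genes, without reaching the limit on size. They were Rab27b and Rab32, named after their values were seen. Both are Rab GTPases of secretory and lysosome-related organelles. Rab27b was at 21.9, 27.8 and 39.9 CPM in Wdr34-1, Wdr34-3 and Wdr60 and at 6.15 (G7) to 23.9 CPM (D8) in the controls, so the groups overlapped. Its log2 fold change was 0.87 (SE 0.23, edgeR adjusted p = 0.0345; exact permutation p 0.143). Rab32 was at 7.44 to 13.8 CPM in mutants and 6.43 to 8.29 CPM in controls, with 0.55 (SE 0.14, edgeR adjusted p = 0.0227; exact permutation p 0.0857). In non-ciliated cells the values were 0.45 for Rab27b (edgeR adjusted p = 0.250) and 0.51 for Rab32 (edgeR adjusted p = 0.0540).

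Of 15 cargo adaptors of class VI, VII and X myosins 9 were tested in both states, with medians of -0.06 and 0.02 and 1 and 3 genes under an unadjusted p of 0.05. In non-ciliated cells 2 of the 9 passed the adjusted p, as did 15.01% of all genes, and were named after their values were seen. Dab2, the clathrin adaptor that binds Myo6, was at 112 and 121 CPM in the mutants and 117 to 299 CPM in the controls (-0.80, SE 0.20, edgeR adjusted p = 0.00773, exact permutation p 0.267). Vasp, an actin polymerase carried by Myo10, was at 104 and 135 CPM in the mutants and 89.0 to 100 CPM in the controls (0.36, SE 0.12, edgeR adjusted p = 0.0412, exact permutation p 0.133).

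The genes around Myo5c that could be tested were not called lower in mutants. Within 1000 kb of its start lie 18 other genes, of which 7 were tested in ciliated and 8 in non-ciliated cells. None was called, and their medians were -0.01 and 0.01. Those tested had higher levels than Myo5c, apart from Hmgcll1 in non-ciliated controls (1.497 CPM, and 3.55 CPM in the mutants). Of the untested, scarce neighbours, Lysmd2 was at 0.0375 CPM in non-ciliated mutants and 0.675 CPM in non-ciliated controls, and at 0.530 and 0.222 CPM in ciliated cells. The noncoding 4933433G15Rik was at 0.0299 and 0.151 CPM in non-ciliated and at 0.0692 and 0.116 CPM in ciliated mutants and controls. Gnb5, a G protein subunit gene that starts at chr9:75306288 inside the end of Myo5c on the same strand, was at 24.7 CPM in ciliated mutants and 24.6 CPM in ciliated controls (0.00, SE 0.22). In non-ciliated cells it was at 15.01 and 17.8 CPM (-0.25, SE 0.13, edgeR adjusted p = 0.183). How counting split reads of the overlap is not given in the sources used here. Over chromosome 9 the median log2 offset of a clone ranged from -0.05 to 0.01 in the 5 mutants and from -0.10 to 0.09 in the 8 controls. Chromosome 7, which holds Myo7a, ran from -0.05 to 0.11, and chromosome 11, which holds Myo1c and Myo1d, from -0.06 to 0.08. Chromosomes 15 and 18 were less even. On chromosome 15, which holds Myo10, the offset was -0.35 in Wdr34-3, the clone with Myo10 below all controls, and between -0.04 and 0.07 in the other 12 clones. On chromosome 18, which holds Myo5b, it was -0.41 in AB and 0.24 in Wdr34-3. The part of these offsets in the levels of Myo10 and Myo5b was not tested.

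**Figure D5:**
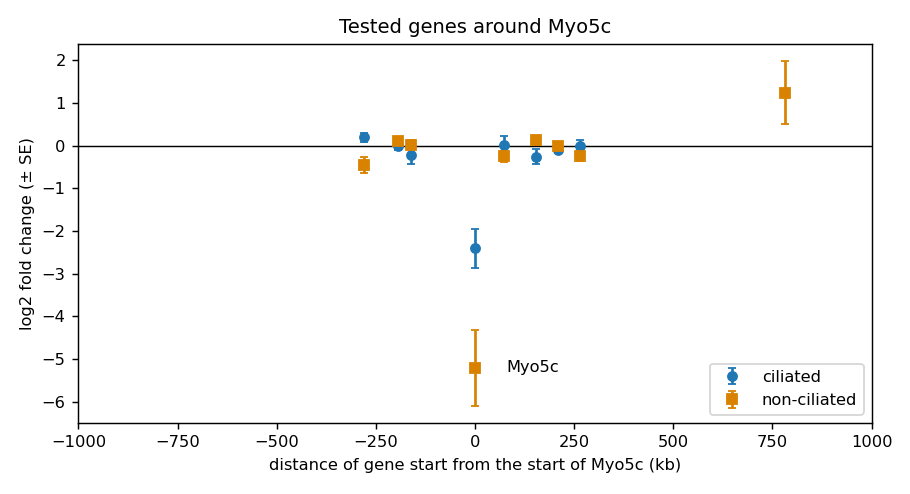
Log2 fold change of mutants against controls (± SE, edgeR) of Myo5c and the tested genes within 1000 kb, by distance of their starts from the start of Myo5c (kb), in ciliated (blue circles) and non-ciliated (orange squares) cells. Neighbours lie between -0.46 and 1.24, the highest being Hmgcll1 in non-ciliated cells, whose edgeR adjusted p was 0.264.

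Genes with a pattern like that of Myo5c were listed as a description. Over the 13 clone means, after removing the mean of each state, the 5 highest Pearson correlations of 11709 genes were with Pnldc1 (r = 0.912), Ica1l (0.853), Fuz (0.851), Etohd2 (0.839) and Panx1 (0.835). The points share the low mutant clones by which Myo5c was chosen, and a clone sequenced in both states would enter more than once. Of these genes 3 were also among the 5 highest by Spearman's rho. Fuz, a planar polarity effector needed for cilia, was at 1.46 and 2.21 CPM in the non-ciliated mutants and 3.53 to 4.79 CPM in the controls. In ciliated cells Wdr34-3 had Fuz at 4.75 CPM, above all 4 controls (3.799 to 4.41 CPM), and the other mutants lay below them (1.73 and 3.12 CPM). Panx1, a membrane channel on chromosome 9, was at 0 CPM in the non-ciliated Wdr34 and the ciliated Wdr34-1, the clones where Myo5c was also lowest, and at 3.73 to 5.92 CPM in non-ciliated controls. Of the 8 paralogs Myo6 had the highest r with Myo5c (0.41) and Myo1e the lowest (-0.66). Myo5a (0.00) and Myo5b (-0.21) lay near the middle.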

How the data were processed

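Per the labels and the study's methods, RNA (RNeasy, SMARTER mRNA-Seq kit) was sequenced, aligned to GRCm38/mm10 and assigned to gene symbols with featureCounts by the authors. The files hold raw counts as deposited. Strand setting and treatment of reads with several hits are not given in the sources used here. Groups came from the labels, and 0 files lacked a mapped sample. The members and gene lists were chosen with earlier results of these data known. By rule the text names all 9 genes, any list gene or neighbour that was called (there were 0) and the 5 genes most like Myo5c. Other genes were named after their values were seen: list genes past the adjusted p, Gnb5, Lysmd2, 4933433G15Rik, Hmgcll1 and markers. The authors' own comparisons were made with DESeq2 1.18.1.

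Counts were tested in R 4.3.3 with edgeR 4.0.16 (filterByExpr, TMM, glmQLFit and glmQLFTest, 2-sided, libraries as samples) over all genes, with Benjamini-Hochberg adjustment. A call needed an adjusted p under 0.05 and, on the log2 scale, a fold change of 1 or more up or down. SE is the log2 fold change divided by the square root of F. Clone means of log2 CPM (prior count 2) were compared by exact 2-sided permutation. CPM carry 1 TMM scale over all libraries, and RPKM use the length of the union of exons annotated by GENCODE. Of the symbols, 99.6% matched RefSeq, which also gave coordinates and sequences. Library totals were 14816218 to 28084979. Replicate libraries differed beyond sampling noise (chi-square per degree of freedom 2.02 to 109, 78 pairs).

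Alternatives were DESeq2 1.42.0, RLE size factors, filters of 1 count in any or 10 in every library, clones summed, limma 3.58.1 voomLmFit with the clone as a block, a replicate block, the adjusted p alone, and leaving out each clone or replicate number. On simulated data with 200 genes changed by 2 on the log2 scale and no clone effect, which does not speak to the smaller changes of the paralogs, the edgeR fit recovered 100% (ciliated, 11928 genes), 100% (non-ciliated, 11945) and 99% (state, 12345) of changed genes with 0 false calls. Protein identity between the myosins was not computed here.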

Additional observations from a re-analysis of the deposited data

Results flagged for a closer look

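Over 117 sets of the 4 libraries of 1 clone, 5 had a library whose gap to its nearest neighbour was large for the range of the set (above Dixon's 95% critical value), and 0 of 18 sets of 4 control clones did. Chance alone gives about 1 in 20. Of the 5, 2 were in library 1 of the non-ciliated control AB: Myo5a at 61.4 CPM, where the other libraries had 120 to 126 CPM, and Myo7a at 10.8 CPM, where they had 14.2 to 14.8 CPM. Library 4 of the ciliated control G7 gave another 2: Myo5a at 141 CPM (others 196 to 205 CPM) and Myo1d at 76.6 CPM (others 89.1 to 90.7 CPM). In library 2 of the ciliated mutant Wdr34-1, Myo1e was at 100 CPM (others 93.7 to 94.4 CPM).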

How the results depend on the processing

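Over 512 alternative values of the 8 paralogs' mutant effects and of their difference between states, 0 were called, 60 had the other sign and 26 had an adjusted p under 0.05 (lowest 0.000426), with sizes up to 0.95. By the adjusted p alone 1 paralog passed in non-ciliated cells. For Myo5c, whose choice fixes the sign, the alternatives ran from -3.42 to -1.85 in ciliated and from -5.97 to -3.85 in non-ciliated cells, leaving aside the fit without Wdr60, whose mutant libraries hold 0 counts, and with 10 counts in every library it could not be fitted. Of the 9 genes, 1 rather than 2 was called between states with clones summed, with voom, and without Co2 or A4 (1 to 2 when leaving out clones or replicates), and 5 by the adjusted p alone.

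Counts over all genes moved far more. In ciliated cells (77) they were 129 by DESeq2, 293 and 23 with the looser and stricter filter, 0 with clones summed, 7 with voom, 379 by the adjusted p alone and 24 to 343 when leaving out clones or replicates (161 without Wdr34-1, 156 without Wdr34-3, 173 without Wdr60, 215 without H12, 343 without G7). In non-ciliated cells (368) they were 565, 151, 0, 9 and 1803 under the filters, clones summed, voom and the adjusted p alone, and 161 to 527 when leaving out. For the difference between states (149) they were 239 by DESeq2, 49 with the stricter filter, 0 with clones summed, 0 with voom, 237 by the adjusted p alone and 7 to 585 when leaving out (247 without AB, 55 without Co2, 232 without Wdr34-1, 63 without Wdr34-3, 277 without the ciliated Wdr60, 98 without A4, 585 without G7). Between control states (1529) they were 2543, 809, 871 and 7760 under the filters, clones summed and the adjusted p alone, and 1310 to 1873 when leaving out. Without G7 and Co2, chosen after seeing the data, they were 343 in ciliated cells and 319 for the difference. The cause was not tested.

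The replicate numbers did not pair libraries (median correlation 0.011, against -0.005 for other numbers); a replicate block gave 52, 324, 112 and 1517 calls in the 4 comparisons. Depth limits Myo5c, at up to 3 counts a library in Wdr34-1.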

Other observations

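Ica1l, a gene of the BAR domain protein family, was at 0.375 and 0.862 CPM in the non-ciliated mutants Wdr34 and Wdr60 and at 1.09 to 2.39 CPM in the non-ciliated controls, a pattern close to that of Myo5c in the same clones. In ciliated cells the mutants (0.800 to 1.10 CPM) and controls (0.897 to 2.06 CPM) overlapped. Myo5c and Panx1 both lie on chromosome 9 and both had 0 counts in the non-ciliated Wdr34, yet in the control AB, where Myo5c was highest at 7.73 CPM, Panx1 (5.42 CPM) was level with Co1 (5.31 CPM), where Myo5c was lowest of the controls at 0.457 CPM.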
